A study of Mus with 6 samples.

Results

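A set of 10 target genes of the tumour suppressor p53 were examined in leukaemic stem and progenitor cells of mice with and without Klf4. The members were Ccng1, Sesn1, Sesn2, Zmat3, Trp53inp1, Phlda3, Gtse1, Aen, Btg2 and Gadd45a, and every probe annotated to one of these symbols was taken. This gave 23 probes of 10 genes, out of 45281 probes on the array, of which 34885 carried 1 gene symbol and covered 19057 genes. The rule for members uses no measured value, but the members were chosen with earlier results of these data known.

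RNA was hybridised to 6 one-colour Illumina bead arrays, 3 of wild-type (WT) and 3 of Klf4-deficient cells. All 6 samples were bone marrow cells of C57BL/6 mice in which BCR-ABL p210 had induced chronic myeloid leukaemia (CML), taken 14 days after bone marrow transplantation. In both groups the sorted cells were GFP+ and lineage-, Sca-1+ and c-Kit+ (LSK), the surface phenotype of stem and early progenitor cells. The promoter or Cre that removed Klf4, the age of the mice and any pooling of mice are not stated in the labels. The labels do not say how many mice stand behind each group of 3, and p-values therefore reflect only sample-to-sample spread, part or all of which may be technical.

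p53 is a transcription factor that is held low by the ubiquitin ligase MDM2 and is stabilised when cells meet DNA damage, oncogene activity or metabolic stress. Its targets slow the cell cycle, restrain growth signalling, limit oxidative damage or promote death, and several of them feed back on p53 itself. In haematopoietic stem cells p53 is known for its part in quiescence and in the response to DNA damage. The series was named for stabilisation of the kinase DYRK2 in leukaemia stem cells, and DYRK2 is known to phosphorylate p53.

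Intensities were on a linear scale with background subtracted, and the lowest value on any array was -31. A value above 32 was read as signal, lower values were set to 32 before the log2 was taken, and this limit is called the floor. WT replicate 3 stood apart from the other 5 arrays, with Pearson r = 0.29 to 0.30 across the 18270 probes above the floor on at least 1 array, against 0.66 to 0.72 among the other 5. These correlations are across probes, which are not independent replicates. Between 15.6% and 15.9% of all probes on each array lay above the floor. Of the 3 probes of Klf4, 2 stayed below the floor on every array and the other exceeded it in WT replicate 2 alone, so the arrays gave no check of the knockout labels.

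The LSK phenotype was compared with its marker genes. Of 12 probes of the LSK markers measured here, 2 to 5 lay above the floor per array in either group, and their summed intensity ran from 417.2 to 1790.5 over the WT arrays and from 611.4 to 1104.6 over the Klf4-deficient ones. Kit, the gene of the c-Kit gate, exceeded the floor on at least 1 of its 3 probes in WT replicates 2 and 3 and in Klf4-deficient replicates 1 and 3, with the probes reading different arrays as highest. Ly6a, which encodes Sca-1, was not analysed here. Gata2 and, on probe ILMN_2761370, Flt3 exceeded the floor on every array but WT replicate 3, at 346.2 to 698.9 and 42.2 to 864.1. Cd34 exceeded it in Klf4-deficient replicate 3 alone, and Meis1 in WT replicate 2 and Klf4-deficient replicate 3, each on a different probe. Procr, a marker of stem cells, lay below the floor on 5 of 6 arrays on both of its probes. Mpo, the myeloperoxidase gene of granulocyte progenitors, was above the floor on all arrays, at 1422.1 to 7153.2 on its probe ILMN_1249030.

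None of the p53 targets differed between Klf4-deficient and WT cells beyond the spread between arrays. Of the 23 probes, 18 exceeded the floor on at least 1 array and were tested, and these 18 still included every one of the 10 genes. limma called 0 of the 18 at an adjusted p under 0.05, where it called 0% of all 18270 probes tested. The adjusted p-values of the 18 probes lay between 0.715 and 0.963, adjusted over all probes tested. An unadjusted p under 0.05 was reached by 0 of the 18, against 2.03% of all probes tested. The WT and Klf4-deficient arrays overlapped for all 18 once values below the floor were set to it, whereas the groups did not overlap for 3.09% of all probes tested. All 18 of the 95% intervals of the difference spanned 0.

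Signal was sparse over the whole array and also from these genes. Of all probes with a symbol, 14733 of 34885 exceeded the floor on at least 1 array, against 18 of the 23 here. A single member probe, of Gtse1, exceeded the floor on all 6 arrays, as did 847 others of the 34885. Of the 23, 6 exceeded it on 3 or more arrays and 9 on 1 array only. Between 5 and 9 member probes per array lay above the floor, or 21.7% to 39.1% of the 23, against 16.1% to 16.6% of all probes with a symbol. Ccng1, Sesn2, Gtse1, Btg2 and Gadd45a were above the floor in both groups. Sesn1, Zmat3 and Trp53inp1 were above it in Klf4-deficient arrays only, and Phlda3 and Aen in WT replicate 3 only. In bulk RNA such as this, fewer expressing cells and less RNA per cell cannot be told apart.

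**Figure D1:**
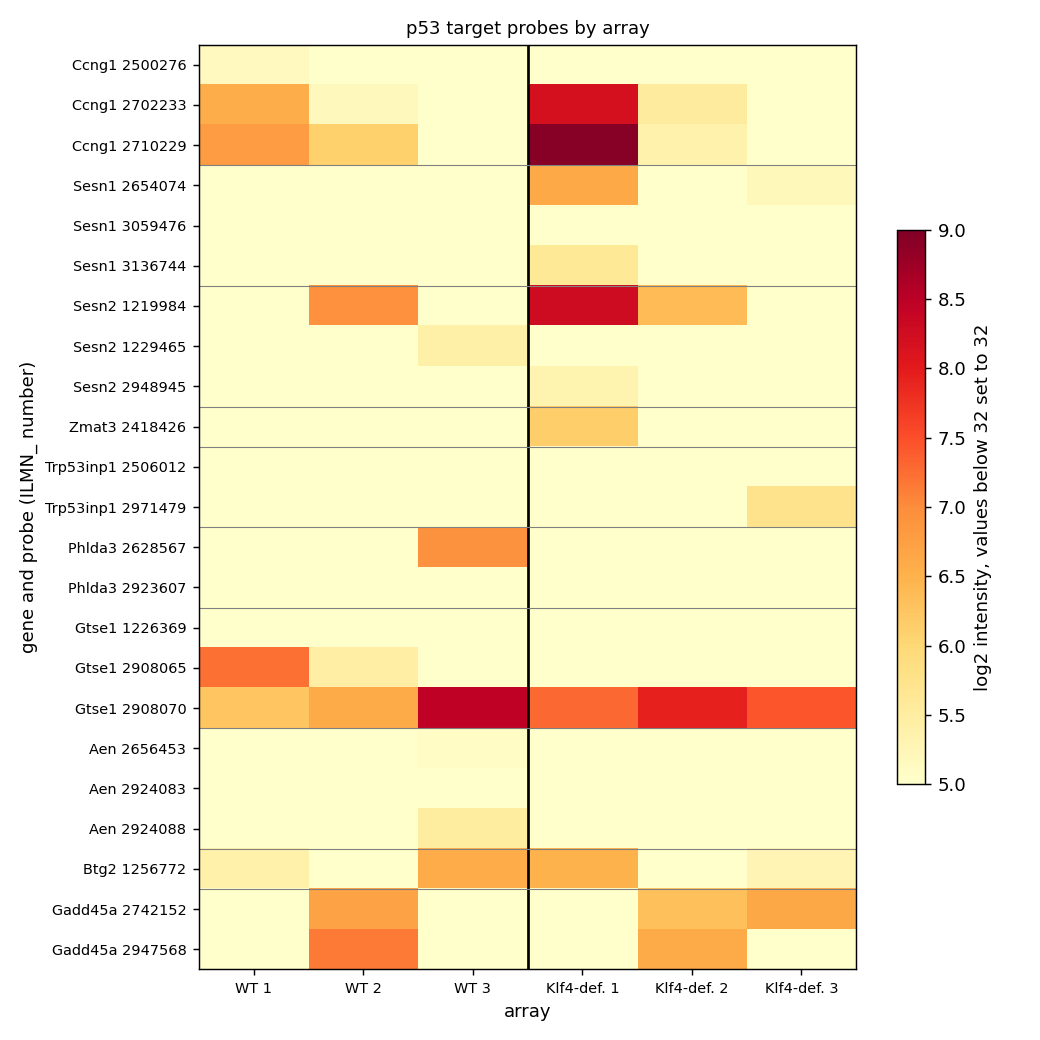
Log2 intensity of the 23 p53 target probes (rows, by gene and probe number) on the 6 arrays (columns, WT left of the black line and Klf4-deficient right of it), with values below 32 set to 32. Most squares are at the floor, the Gtse1 probe 2908070 is the row above it on all 6 arrays, and Klf4-deficient replicate 1 holds the darkest squares of Ccng1 and Sesn2.

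Of the 18 tested probes, 10 had a higher mean in the Klf4-deficient group and 8 a lower one, with a median difference of 0.15 (log2) and a range from -0.90 to 0.90. Over all 18270 probes tested the median difference was -0.05, with 45.8% higher and 54.2% lower. With the probes at the floor counted as 0, both medians were 0. The median of the 18 probes rested on Klf4-deficient replicate 1, since without that array it was -0.05 over 15 probes, with 6 higher and 9 lower, beside -0.11 over all probes tested in that fit. Without WT replicate 3 it was 0.22 over 14 probes, with 10 higher and 4 lower, beside 0.06 over all probes. The median residual SD within groups was 0.71 (log2) for the member probes and 0.69 for all probes tested.

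**Figure D2:**
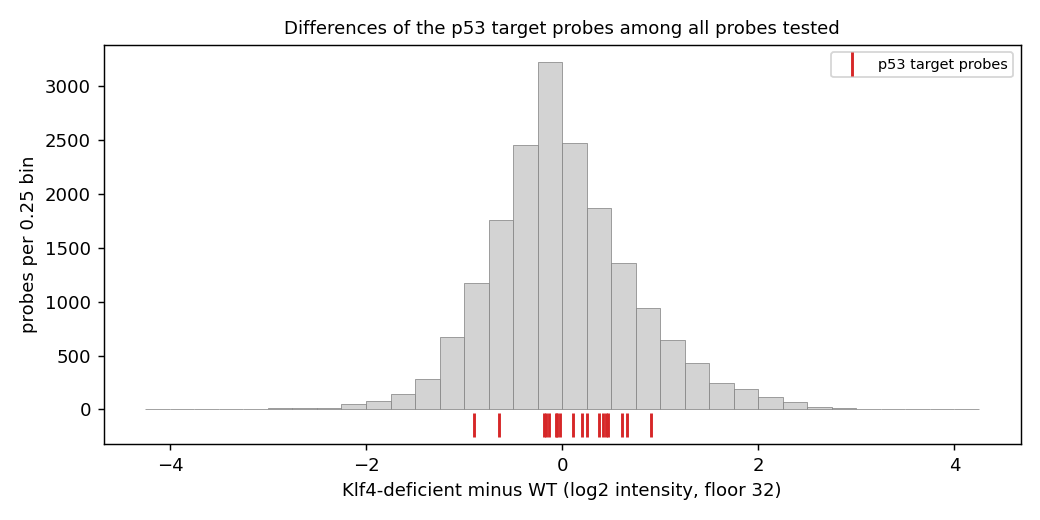
Histogram of the log2 difference, Klf4-deficient minus WT, for all probes tested (grey, number of probes per bin of 0.25), with the 18 p53 target probes as red ticks under the axis. The red ticks run from -0.90 to 0.90 and lie within the body of the grey distribution.

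The members that act on the cell cycle and on p53 itself came first. Ccng1 encodes cyclin G1, which brings a phosphatase to MDM2 and so feeds back on p53. On probe ILMN_2710229 Ccng1 read 111.1, 68.4 and 20.4 in WT replicates 1 to 3 and 489.1, 41.3 and 5.3 in Klf4-deficient replicates 1 to 3. The highest value was that of Klf4-deficient replicate 1, the lowest was in the same group, and the groups overlapped. On probe ILMN_2702233 it measured 93.5, 36.1 and 7.6 on the WT arrays against 288.8, 46.4 and 18 on the Klf4-deficient ones. Both probes thus exceeded the floor on the same 4 arrays and were highest on the same one. The differences were 0.47 ± 1.20 and 0.66 ± 0.97 (SE on the log2 scale, n = 3 per group, limma adjusted p = 0.852 and 0.751). Leaving out Klf4-deficient replicate 1 turned them to -0.78 and -0.31, and leaving out WT replicate 3 turned the first to -0.01. Across the fits that left out 1 array they reached as high as 1.19 and 1.28. The third Ccng1 probe, ILMN_2500276, exceeded the floor in WT replicate 1 alone, at 35.4, and read 1.2 in Klf4-deficient replicate 1, so it did not share the high value there.

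Btg2 encodes an antiproliferative protein of the BTG/TOB family that recruits the CCR4-NOT deadenylase to mRNA. Its single probe measured 41.8, 30.1 and 95.3 on the WT arrays against 90.4, 0.3 and 38.9 on the Klf4-deficient ones, above the floor on 2 arrays of each group. The groups covered nearly the same range, and the difference was -0.06 ± 0.60 (SE on the log2 scale, n = 3 per group, limma adjusted p = 0.963). It was 0.40 without WT replicate 3 and -0.51 without Klf4-deficient replicate 1. The 95% interval for Btg2, -1.57 to 1.45 and not adjusted over the array, reached 2.85-fold on either side of the estimate.

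Gadd45a encodes a small stress protein that binds PCNA and the kinase MEKK4 and takes part in growth arrest after DNA damage. On probe ILMN_2742152 it measured 2.6, 103.9 and -13.6 on the WT arrays against -5.1, 79.7 and 99.7 on the Klf4-deficient ones. On probe ILMN_2947568 it measured 3.2, 141.5 and -13.3 on the WT arrays against 7, 97.3 and 17.6 on the Klf4-deficient ones. Replicate 2 of each group was high on both probes, and replicates 1 of both groups and WT replicate 3 were below the floor on both. Klf4-deficient replicate 3 was read differently by the probes, above the floor on the first and below it on the second. The signs of the differences accordingly differed, at 0.42 ± 0.68 and -0.18 ± 0.80 (SE on the log2 scale, n = 3 per group, limma adjusted p = 0.769 and 0.917). Without WT replicate 2 both were positive, at 0.99 and 0.53. With 1 array left out, the first ran from 0.092 to 0.99 and the second from -0.71 to 0.53. Gadd45a levels were thus spread within each group, from the floor to 141.5 in WT and to 99.7 in Klf4-deficient arrays.

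Gtse1 encodes a microtubule-binding protein of S and G2 phase that moves p53 out of the nucleus and lowers its level. Its probe ILMN_2908070 measured 76.5, 97.1 and 351.1 on the WT arrays against 156.6, 243.3 and 173.4 on the Klf4-deficient ones. The Klf4-deficient arrays were close together (SD 0.33, log2) and lay above WT replicates 1 and 2 but below WT replicate 3 (SD of WT 1.18). The difference was 0.45 ± 0.64 (SE on the log2 scale, n = 3 per group, limma adjusted p = 0.749). Leaving out WT replicate 3, the array that stood apart, gave 1.12 ± 0.30 (limma unadjusted p = 0.0171, adjusted p = 0.836), and across the fits that left out 1 array the difference ran from 0.02 to 1.12. A second probe of Gtse1, ILMN_2908065, went the other way. It measured 150.4, 44.2 and -7.5 on the WT arrays against 8.1, -3.2 and 12.6 on the Klf4-deficient ones, so 2 of 3 WT arrays and no Klf4-deficient array exceeded the floor. Its difference was -0.90 ± 0.61 (SE on the log2 scale, n = 3 per group, limma adjusted p = 0.715), or 1.87-fold lower without Klf4 on floored values. It rested on WT replicate 1, without which it was -0.23. It was -1.35 without WT replicate 3. The last Gtse1 probe lay below the floor on all arrays. The direction for Gtse1 thus depended on the probe.

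Because Gtse1 is a cell cycle gene, the S and G2/M genes were counted beside it. Of 51 probes of such genes above the floor, 34 had a higher and 17 a lower mean without Klf4, with a median of 0.19 (log2). limma called 0 of them. An unadjusted p under 0.05 was reached by 1 of the 51, against 2.03% of all probes tested. That probe was of Tyms, thymidylate synthase, at -1.63 ± 0.24 (SE, n = 3 per group, limma adjusted p = 0.715). The next smallest p was that of Nusap1, a spindle protein, 2.11-fold higher on floored values without Klf4 and above the floor on 2 of those 3 arrays (limma adjusted p = 0.715). The number of S and G2/M probes above the floor was 13 in WT replicate 3 and 29 to 39 on the other arrays. Among the 847 other probes with a symbol above the floor on all 6 arrays, the patterns nearest to Gtse1 probe ILMN_2908070 were those of Syf2, a splicing factor, Ino80c, a subunit of a chromatin remodeller, and Atp5a1, a subunit of ATP synthase. Their log2 values, centred on each probe's mean, differed from those of Gtse1 by a root mean square of 0.25, 0.26 and 0.28 over the 6 arrays. Like Gtse1, all 3 were highest in WT replicate 3 and lowest in WT replicate 1, which comes largely from choosing them by nearness to it over the same arrays.

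The sestrins answer metabolic and oxidative stress by restraining the growth kinase mTORC1. On its probe ILMN_1219984 Sesn2 measured 21, 123.6 and 25.8 on the WT arrays against 309.6, 83.6 and 24.1 on the Klf4-deficient ones. Klf4-deficient replicate 1 was the highest array and the groups overlapped. The difference of 0.90 ± 1.02 (SE on the log2 scale, n = 3 per group, limma adjusted p = 0.715) became 0.04 when Klf4-deficient replicate 1 was left out and 0.58 when WT replicate 3 was. It was 1.55 without WT replicate 2 and 1.68 without Klf4-deficient replicate 3. Probe ILMN_2948945 of Sesn2 exceeded the floor in Klf4-deficient replicate 1 only, at 40. On the deposited intensities this probe measured 4.7, 9.3 and 9.7 on the WT arrays against 40, 19.3 and 12.7 on the Klf4-deficient ones, so each of the latter was higher, but 5 of the 6 values lay below the floor, where order is not read. Probe ILMN_1229465, annotated to the transcript AK084592 where the other Sesn2 probes are annotated to NM_144907, exceeded it in WT replicate 3 only, at 42.5.

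Sesn1, its paralogue, lay below the floor on all WT arrays. Probe ILMN_2654074 measured 5.9, 2.2 and -12 on the WT arrays against 98.6, 4.3 and 36.8 on the Klf4-deficient ones. On floored values it was 1.52-fold higher without Klf4, with 2 of the 3 above the floor (0.61 ± 0.47 with SE on the log2 scale, n = 3 per group, limma adjusted p = 0.715). The difference was 0.10 without Klf4-deficient replicate 1. Probe ILMN_3136744 exceeded the floor in Klf4-deficient replicate 1 alone, at 48.4, and the remaining Sesn1 probe lay below the floor on all arrays. High Sesn1 and high Sesn2 were thus met on the same array, by 2 probes each.

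Phlda3 encodes a protein made of little more than a pleckstrin homology domain, which competes with AKT for membrane lipids and so dampens AKT signalling. Probe ILMN_2628567 measured 17.1, -1.3 and 121.5 on the WT arrays against 9, 9.5 and 10.8 on the Klf4-deficient ones. Only WT replicate 3 exceeded the floor. The difference, 1.56-fold lower without Klf4 on floored values (-0.64 ± 0.58 with SE on the log2 scale, n = 3 per group, limma adjusted p = 0.715), therefore rested on 1 of 3 WT arrays. Without that array the probe was at the floor on every array. The second Phlda3 probe was below the floor throughout, with highest values of 3 (WT) and 7.9 (Klf4-deficient).

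The remaining 3 members act on RNA or in cell death. Zmat3 encodes a zinc finger protein that binds RNA and regulates splicing and mRNA stability. It measured 3, 2 and -16.3 on the WT arrays against 69.8, -6.8 and -9.6 on the Klf4-deficient ones, so a single array, Klf4-deficient replicate 1, exceeded the floor. The difference was 0.38 ± 0.36 (SE on the log2 scale, n = 3 per group, limma adjusted p = 0.715). Trp53inp1 encodes a nuclear protein that promotes phosphorylation of p53 and takes part in autophagy. Its probe ILMN_2971479 measured 27.8, 2 and -1.5 on the WT arrays against -0.5, 18.4 and 53.7 on the Klf4-deficient ones, above the floor in Klf4-deficient replicate 3 only (0.25 ± 0.26 with SE on the log2 scale, n = 3 per group, limma adjusted p = 0.715). Its other probe ranged from -2.4 to 12.5.

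Aen encodes an apoptosis-enhancing exonuclease. Probe ILMN_2924088 measured 17, 27.8 and 45.4 on the WT arrays against 13.2, 11 and 4.8 on the Klf4-deficient ones. On the deposited intensities each WT array lay above each Klf4-deficient one, but here too 5 of the 6 values were below the floor. With the floor the difference was -0.17 ± 0.21 (SE on the log2 scale, n = 3 per group, limma adjusted p = 0.72). Probe ILMN_2656453 exceeded the floor in WT replicate 3 alone, at 33.5, and the last Aen probe was at or below -1.1 on all arrays.

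**Figure D3:**
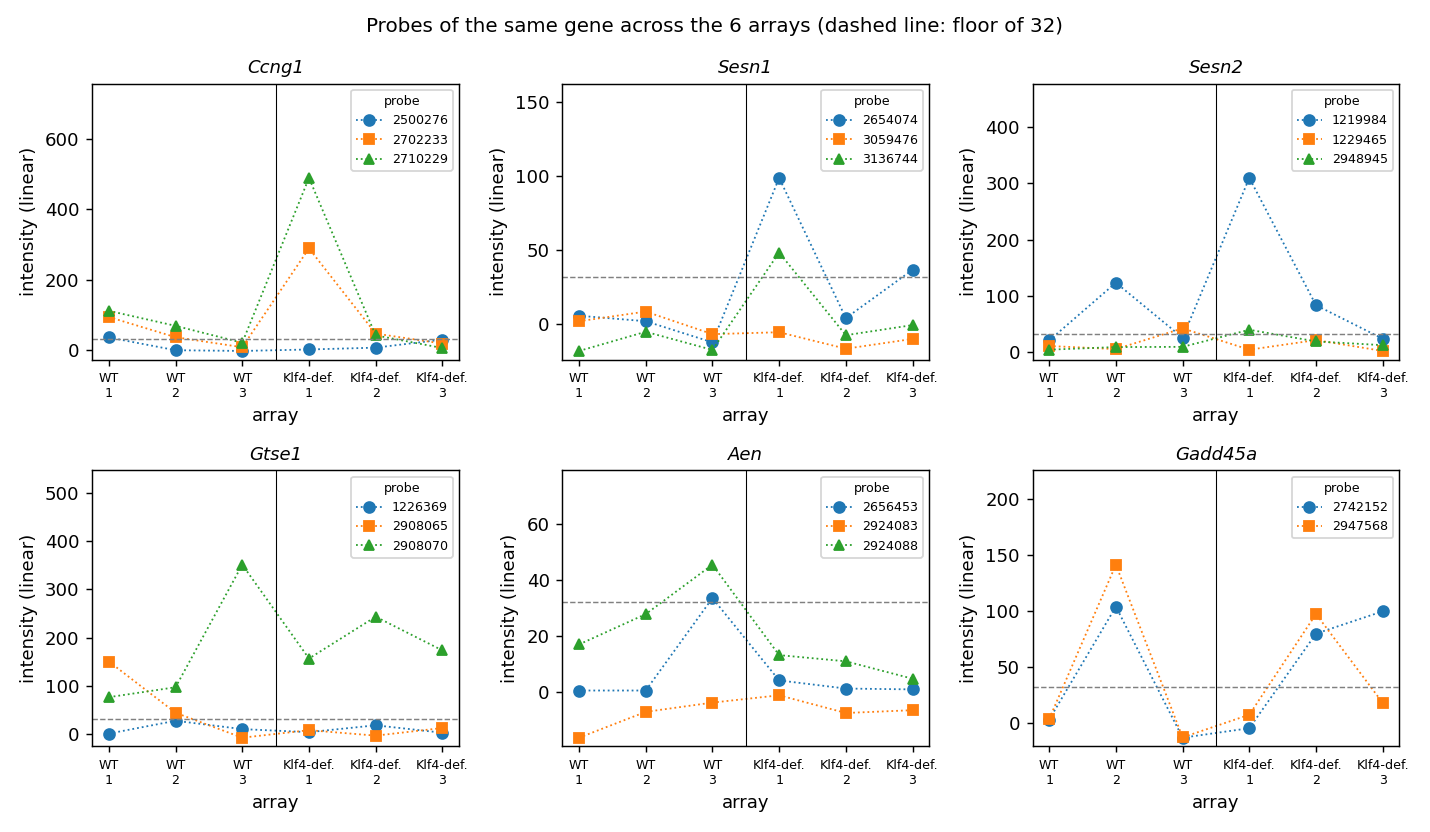
Linear intensity of each probe (markers joined by dotted lines, 1 colour per probe number) of 6 p53 targets on the 6 arrays, WT left and Klf4-deficient right of the vertical line, with the floor of 32 dashed. A pair of Ccng1 probes peak together in Klf4-deficient replicate 1 and both Gadd45a probes are high in replicate 2 of each group, while the Gtse1 probes 2908065 and 2908070 go opposite ways.

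Agreement between probes of the same gene was limited. Of the 6 genes with more than 1 tested probe, 2 had the same sign of difference on all tested probes, Sesn1 (higher) and Aen (lower). Ccng1, Sesn2, Gtse1 and Gadd45a had both signs. Probes of a gene are not replicates of the condition, since they read the same RNA. Taking the brightest probe of each gene, 7 genes were higher and 3, Phlda3, Aen and Btg2, were lower, and limma again called 0 of the 10.

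**Figure D4:**
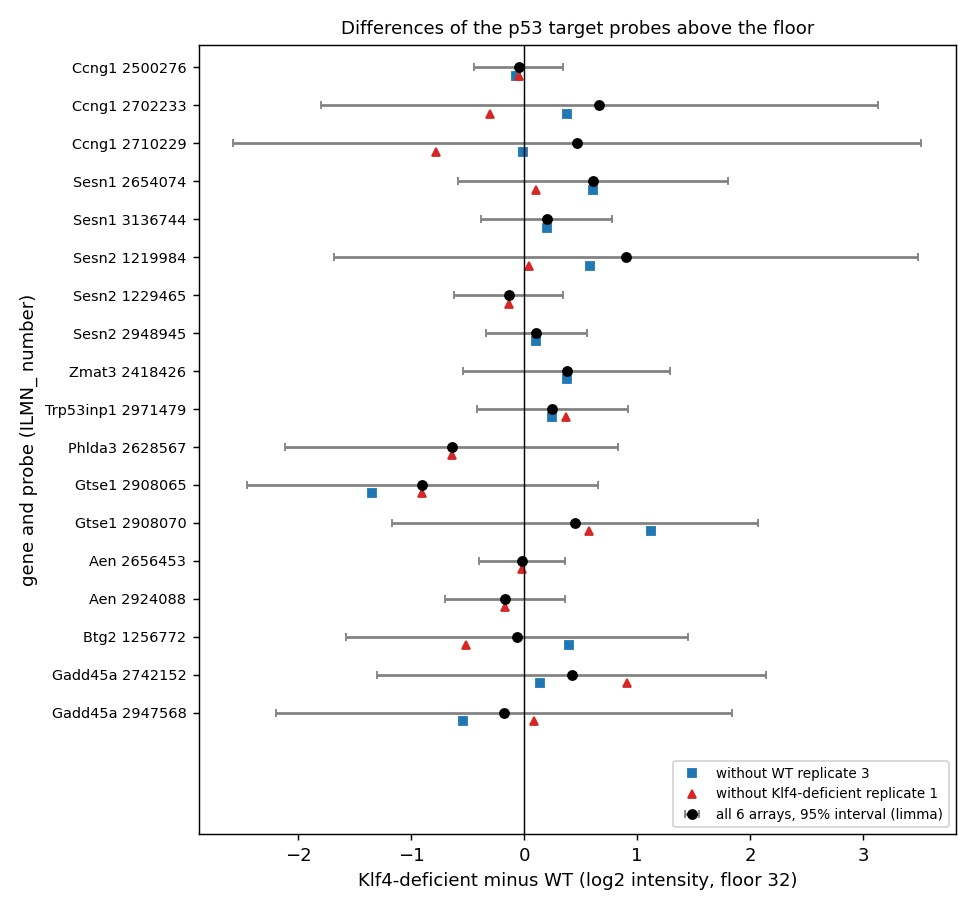
Log2 difference, Klf4-deficient minus WT, of the 18 p53 target probes above the floor (black points, n = 3 arrays per group) with 95% intervals from limma (grey), beside the value without WT replicate 3 (blue squares) and without Klf4-deficient replicate 1 (red triangles), drawn where the probe still exceeded the floor. Every interval spans 0, and the Ccng1 probes 2702233 and 2710229 turn negative without Klf4-deficient replicate 1.

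The intervals show what size of difference these arrays could have missed. For probes above the floor on 3 or more arrays, the interval reached from 1.51 (Btg2) to 3.04 (Ccng1 probe ILMN_2710229) on either side of the estimate on the log2 scale, or 2.85-fold to 8.23-fold. Narrow intervals, such as 0.38 for Aen probe ILMN_2656453, belonged to probes with 5 of 6 arrays at the floor and describe the floor more than the gene.

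Values of the p53 targets were unevenly spread over the arrays. Of the 18 tested probes, 7 had their highest value in Klf4-deficient replicate 1, against 13.7% of all probes tested, and they belonged to 4 genes, Ccng1, Sesn1, Sesn2 and Zmat3. A further 6 probes, of 5 genes, had it in WT replicate 3, where 29.2% of all probes tested did. No probe of these genes was highest in Klf4-deficient replicate 2. The summed intensity of the 23 probes was 1653.6 in Klf4-deficient replicate 1 and 543.9 to 775.6 on the other 5 arrays. This pattern was seen after the values were known, concerns 1 array, and was given no test. Of 45 tested probes of other p53 targets, 11 were highest in WT replicate 3 and 9, or 20%, in each of Klf4-deficient replicate 1 and WT replicates 1 and 2. Klf4-deficient replicate 1 was also the highest array for 20.5% of the tested probes of p53 regulators and 23.5% of those of S and G2/M genes.

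Other measures of Klf4-deficient replicate 1 were set beside this. Its 7212 probes above the floor lay within the range of the other arrays. The deposited values had been put on one scale, which keeps this count nearly equal on every array, so it cannot set an array apart. Klf4-deficient replicate 1 correlated with the arrays other than WT replicate 3 at 0.69 to 0.72. It had the highest summed intensity of S and G2/M genes, 7525.6 against 5716.6 to 6779.6, and 8 of 11 neutrophil marker probes above the floor against 5 to 6 elsewhere, with a summed intensity of 4084.7 within the range of the others. The part of these differences in the p53 target values was not tested.

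**Figure D5:**
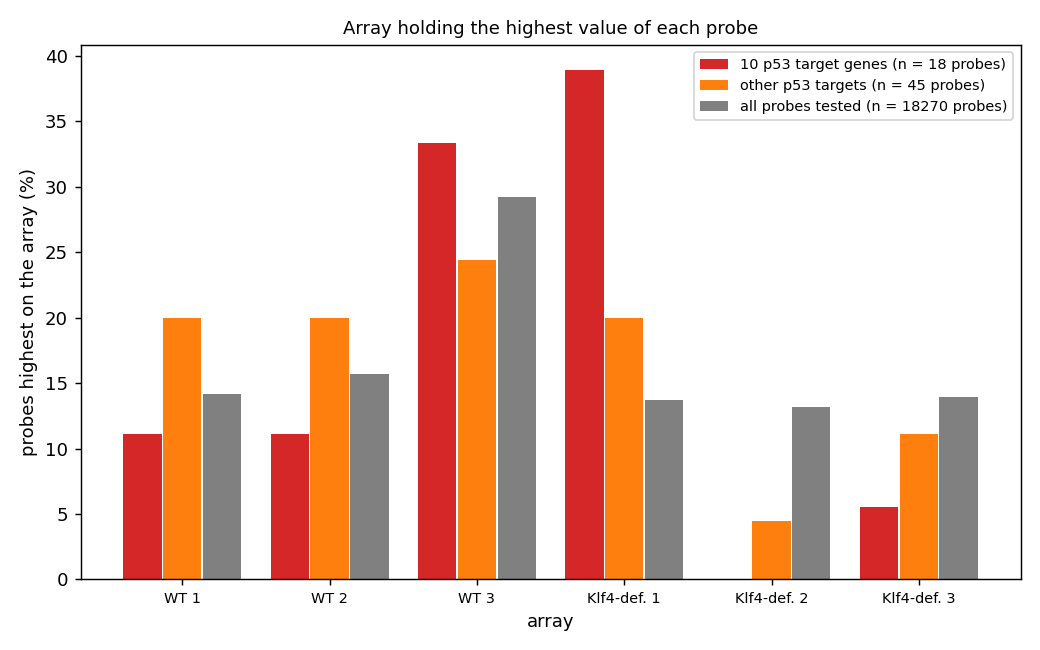
Share of probes (%) whose highest value fell on each of the 6 arrays, for the 18 tested probes of the p53 targets described here (red), 45 probes of other p53 targets (orange) and all 18270 probes tested (grey). The red bar of Klf4-deficient replicate 1, 38.9%, stands above its grey bar of 13.7%, while the grey bar of WT replicate 3 is the tallest of its colour at 29.2%.

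Of the marker lists, whose sums were given no test, the T cell list had a summed intensity of 56.3 to 96.5 over the WT arrays against 179.8 to 373.2 over the Klf4-deficient ones, and 1 of 7 probes above the floor in each WT array against 2 to 3 in Klf4-deficient arrays. Its largest difference was that of Thy1 on probe ILMN_2644350, at 113, 187.2 and 146 on the Klf4-deficient arrays against 24.4, 26 and -7 on the WT ones, with no overlap (limma unadjusted p = 0.000195, adjusted p = 0.595). The other Thy1 probe, ILMN_2474578, did not share it, at -4.5, 0.6 and 34.6 against -8.9, -7.3 and -0.8, a difference of 0.04 (log2). Cd8a probe ILMN_2935080 was above the floor on all 3 Klf4-deficient and on 2 WT arrays, while the other Cd8a probe was below it on every array. The defining gene Cd3e was below the floor on all Klf4-deficient arrays on both probes. Cd3e exceeded the floor in WT replicate 3 alone, at 56.3, and Cd3g in Klf4-deficient replicate 2 alone, at 51.6. The erythroid list summed to 1572.7 to 3039.4 over the WT arrays against 2262 to 3071.1 over the Klf4-deficient ones. Beside 45.8% of all probes tested, 4 of its 5 tested probes had a higher mean without Klf4. Among these 4, Alas2, the erythroid enzyme that starts haem synthesis, measured 172, 114.1 and 160.7 on the Klf4-deficient arrays against 8.8, 26.1 and -15 on the WT ones, again with no overlap (limma unadjusted p = 0.000129, adjusted p = 0.595). The other erythroid genes tested did not share this. Car2 had opposite signs on its probes (-0.42 and 0.40, log2) and Klf1 differed by 0.16. Hba-a1 was higher in WT replicate 2, at 1996.1, than on any Klf4-deficient array, at 1515.8 to 1762.7. Mast cell and basophil sums were 2799.5 to 3484.3 against 2574.3 to 2825.8, and megakaryocyte sums 113.8 to 355.8 against 40.4 to 95.5. WT replicate 3, the array on which Phlda3 and Aen exceeded the floor, had the highest neutrophil and monocyte sums, 8861.4 and 569. The part of these markers in the values of the p53 targets was not tested.

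The wider p53 pathway was counted in the same fit. Of 52 other p53 targets, 48 had a probe and 32 were above the floor, with 45 probes tested. Of these, 20 were higher and 25 lower, with a median of -0.22 (log2) beside -0.05 for all probes, and limma called 0. An unadjusted p under 0.05 was reached by 2 of the 45, against 2.03% of all probes tested. Those 2 had opposite signs. Shisa5, which encodes a membrane protein of p53-dependent death at the endoplasmic reticulum, measured -7.1, 16.2 and -5.1 on the WT arrays against 79.5, 106.5 and 330.3 on the Klf4-deficient ones, at least 4.40-fold higher (limma adjusted p = 0.715). Apaf1, the scaffold of the apoptosome, measured 55.4, 53.1 and 41.4 on the WT arrays against 2, 18.4 and 13.5 on the Klf4-deficient ones, at least 1.55-fold lower (limma adjusted p = 0.715).

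Regulators of p53 gave the same outcome. Of 44 tested probes of 19 such genes, 23 were higher and 21 lower, with a median of 0.07 (log2), and limma called 0. An unadjusted p under 0.05 was reached by 1 of the 44, against 2.03% of all probes tested. That probe was of Hipk2, a kinase that phosphorylates p53, at 2.95 ± 0.82 (SE, n = 3 per group, limma adjusted p = 0.715). The next smallest p was that of Usp7, a deubiquitinase of MDM2 and p53, 1.83-fold higher on floored values without Klf4 and above the floor on 2 of those 3 arrays (limma adjusted p = 0.715). Trp53 itself was not analysed here.

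Paralogues of the members were read as a comparison within families. Of 17 tested probes, 7 were higher and 10 lower, and limma called 0. An unadjusted p under 0.05 was reached by 3 of the 17, against 2.03% of all probes tested. Among the 3 were 2 probes of Gadd45g, a paralogue of Gadd45a in the same stress family, and they opposed each other. Probe ILMN_2744890 measured 48.6, 72.2 and 59.4 on the WT arrays against -7.1, -1.1 and -4.9 on the Klf4-deficient ones, at least 1.85-fold lower. Probe ILMN_2903945 measured 50.6, 51.2 and 82.5 on the WT arrays against 447.3, 329 and 88.5 on the Klf4-deficient ones, 3.94-fold higher. On each probe the groups did not overlap, as for 3.09% of all probes tested, and both had a limma adjusted p of 0.715.

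The remaining paralogues did not pass the test either. Isg20, an exonuclease related to Aen, was higher by at least 2.61-fold without Klf4, at 173, 50.4 and 66.7 against 20.5, 8.5 and 22.5 (limma adjusted p = 0.715), a direction opposite in sign to that of Aen. Btg1, the closest relative of Btg2, measured 94.1, 396.8 and 116.8 on the WT arrays against 72.4, 438.5 and 32.3 on the Klf4-deficient ones on probe ILMN_2866189, highest in replicate 2 of each group. Its difference was -0.70 ± 1.14 on that probe and -0.47 ± 1.11 on ILMN_2866185 (SE on the log2 scale, n = 3 per group, limma adjusted p = 0.771 and 0.841). Sesn3, the third sestrin, was above the floor on all Klf4-deficient arrays, at 133, 115.7 and 125.4, and in WT replicate 1 at 288.8, with -11.6 and -6.8 in the other WT arrays (0.90 ± 0.94, limma adjusted p = 0.715). Differences of cyclin family members Ccng2 and Ccni were 0.11 ± 0.35 and 0.92 ± 0.58, those of Zmat5 and Isg20l2 were 0.07 ± 0.51 and -0.64 ± 0.82, and all 4 had limma adjusted p-values of 0.715 to 0.953.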

How the data were processed

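Gene expression was measured on 6 Illumina arrays, 3 WT and 3 Klf4-deficient, grouped by the sample titles. The deposited table holds linear intensities made with BeadStudio, per the submitters' processing notes, while the software version and its background and normalization settings were not given in the sources used here. Deposited intensities included 45.3% to 45.6% of values at or below 0 per array, and 95.4% of ranks agreed between arrays within 5% or 0.15, so they had been background-subtracted and put on one scale. No further scaling was applied. Such scaling hides any difference in total RNA.

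Probe names came from the platform annotation, with Entrez numbers checked against the GRCm38.p6 RefSeq gene list, which changed 0 symbols. All 10 members matched. Probe sequences were not used here. Values below 32 were set to 32 and log2 was taken. The 18270 probes above 32 on at least 1 array were fitted with limma 3.58.1 (lmFit, eBayes) in R 4.3.3, each probe on its own, with Benjamini-Hochberg adjustment over all of them and a threshold of 0.05, using data.table (version 1.17.8). The step was tested on simulated normal values with the same spread for every probe and no floor. That test does not cover probes that lie mostly at the floor. A group wholly at the floor gives a bound, written as "at least". The number of arrays limits the precision.

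All members and probes are named. For the p53 regulators, other p53 targets, paralogues and S and G2/M genes, called probes or otherwise the 2 with the smallest p are named, and marker genes were singled out after their values were seen. Named too are paralogue probes above the floor on 3 or more arrays and the 3 patterns nearest to the brightest member probe. Members and lists were chosen with earlier results of these data known. Alternatives were other floors, an offset, other filters, trend and robust eBayes, array weights, quantile normalization, a replicate block, 1 value per gene, and leaving out each array.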

Additional observations from a re-analysis of the deposited data

How the results depend on the processing

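No member probe was called by limma under any of the alternatives, and the smallest adjusted p of a member probe over them was 0.427. Over all probes or genes 0 were called, except 1, the unnamed probe ILMN_2944601 (2.22 log2 higher in Klf4-deficient arrays), with no filter on low values and with the mean of each gene's probes. The median difference of the member probes, 0.15, was 0.086 with a floor of 64, 0.35 with a floor of 16, 0.32 with an offset of 32, 0 with no filter, 0.43 above percentile 75 of probe means and 0.40 with the brightest probe of each gene. It lay between -0.049 and 0.25 when 1 array was left out. Signs turned for Ccng1 ILMN_2500276 (0.060) and Gadd45a ILMN_2947568 (0.12) with the offset, for Ccng1 ILMN_2710229 (-0.079) and Btg2 (0.30) with array weights, and for Gtse1 ILMN_2908070 (-0.15) with the mean of its probes. The cause was not tested. With 1 array left out, Ccng1 ILMN_2710229 ran from -0.78 to 1.19, Ccng1 ILMN_2702233 from -0.31 to 1.28, Btg2 from -0.51 to 0.40 and Gadd45a ILMN_2947568 from -0.71 to 0.53. Of the 266 refitted member differences, 252 kept their sign and stayed uncalled. Many of them could not turn. Other filters, the brightest probe, trend and robust eBayes and the replicate block leave each estimate as it was. A probe above the floor on 1 array also keeps its sign in every left-out fit that tests it. The count is therefore no measure of how firm the directions are. The 371 probes at an unadjusted p under 0.05 were 246 with a floor of 64 and 247 with no filter, 584 with the offset, 175 with trend and robust eBayes, 603 with array weights, and 449 to 809 with 1 array left out. Member probes among them were 2, both of Gtse1, with array weights, which gave WT replicate 3 a weight of 0.065 against 0.94 to 2.72 for the others, and 1, of Gtse1, without WT replicate 3. Whether the replicate numbers pair the samples was not settled. Deviations of same-numbered arrays correlated weakly, at 0.03 to 0.04, and those of differently numbered arrays at -0.029 to -0.0076. Each group was centred on its own mean, so positive values for some pairs require negative ones for others. The negative values are thus no separate sign of a pairing. Weak correlations over all probes cannot exclude a pairing. With the replicate number as a block, 0 probes and 0 member probes were called, 362 probes had an unadjusted p under 0.05, and the median of the member probes was 0.15.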
